A study of Homo sapiens with 16 samples.

Results

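The genes described here are 7 metallothionein genes (MT1E, MT1F, MT1G, MT1H, MT1M, MT1X and MT2A) and the zinc exporter gene SLC30A1, which were taken by symbol from the 60623 genes listed in each library. The 8 members were followed through 16 cDNA libraries that were sequenced on Nanopore flow cells from polyA RNA. The libraries came from Caco-2, a human colon carcinoma line that formed the gut part of a microfluidic gut-liver chip, and HepG2, a human liver cancer line that formed its liver part. Each line was grown either alone in its chamber (mono-culture) or with the other line in a separate chamber of the same closed circuit (co-culture). Each was kept without free fatty acids (control) or given a mixture of palmitic and oleic acid at 1 mM in total (FFA) in medium with fatty acid-free albumin. This gave 8 groups of 2 libraries. The chip medium held serum before the treatment, the study's methods describe a serum-free starvation before FFA was given, and whether the control medium held the albumin or the solvent of the fatty acids is not given in the sources used here. The labels place the sampling at 1 day after FFA was added, whereas the study describes sequencing both at that time and after a longer treatment. All sample titles begin with LTC, which the study's text does not explain. Both lines are tumour lines, and no further clone or passage is named.

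Metallothioneins are short intracellular proteins rich in cysteines, which hold zinc and copper. Their genes lie side by side and are known to be switched on by zinc, cadmium, copper, glucocorticoids and oxidant stress, the metal response running through the transcription factor MTF1. MTF1 binds short metal response elements before the start site. In gut and liver they buffer dietary zinc and copper, and SLC30A1, the exporter of the plasma membrane that is itself a target of MTF1, carries zinc out of the cell.

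In the GENCODE 44 annotation of GRCh38, the 7 metallothionein members lay within 75613 bases of chromosome 16, from 56608584 (start of MT2A) to 56684196 (end of MT1X), 6 on the plus strand and MT1G on the minus strand. SLC30A1 lay on chromosome 1 at 211571568-211579161 on the minus strand. The principal transcript of each metallothionein member had 3 exons and between 397 and 704 bases, and that of SLC30A1 had 5893 bases. Each metallothionein member had a coding sequence of 186 bases with the stop codon, of whose 61 other codons 20 (32.8%) were TGC or TGT, the codons for cysteine. The sequences of the 4 members that carried most of the metallothionein reads or separated the lines are shown to let their likeness be seen. They run 5′ to 3′ on the strand of the gene, and capitals mark the cysteine codons.
MT2A (coding exons within chr16:56608656-56609354): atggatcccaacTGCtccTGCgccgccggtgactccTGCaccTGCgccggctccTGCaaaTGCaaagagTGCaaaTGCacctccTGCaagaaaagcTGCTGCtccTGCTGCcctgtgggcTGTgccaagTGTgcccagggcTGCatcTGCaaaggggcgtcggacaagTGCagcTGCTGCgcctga
MT1X (coding exons within chr16:56682541-56684049): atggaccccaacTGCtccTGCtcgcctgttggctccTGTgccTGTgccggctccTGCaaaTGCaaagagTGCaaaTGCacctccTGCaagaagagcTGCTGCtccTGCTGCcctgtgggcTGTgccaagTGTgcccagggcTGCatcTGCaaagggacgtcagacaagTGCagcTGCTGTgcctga
MT1E (coding exons within chr16:56625852-56626971): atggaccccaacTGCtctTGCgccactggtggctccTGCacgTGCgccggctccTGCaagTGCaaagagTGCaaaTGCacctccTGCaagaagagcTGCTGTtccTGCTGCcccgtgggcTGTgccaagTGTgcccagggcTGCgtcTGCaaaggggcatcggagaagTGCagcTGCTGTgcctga
MT1G (coding exons within chr16:56666879-56667993): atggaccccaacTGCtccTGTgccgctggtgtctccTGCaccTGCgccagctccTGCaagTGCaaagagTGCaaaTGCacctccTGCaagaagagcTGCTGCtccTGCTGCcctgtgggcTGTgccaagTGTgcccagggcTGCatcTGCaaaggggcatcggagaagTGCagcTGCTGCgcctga
Over the 21 pairs of the 7 members, identity of the coding sequence ran from 88.7% (MT1F and MT1X) to 95.2% (MT1G and MT2A). MT1X and MT2A differed at 14 of 186 bases, MT1E and MT1G at 10, and MT1G and MT2A at 9. How the authors' counting treated reads that fitted several of these genes is not given in the sources used here, so each member's level is uncertain to that extent, and the sum over the members less so.

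The table of 35116 promoters (RefSeq, GRCh38.p14) held 4 of the 8 members: MT2A, MT1X, MT1H and SLC30A1. The 250 bases before each start site are shown because MT2A and MT1X were the most abundant members while MT1H and SLC30A1 had almost no reads. Capitals mark every match to the core letters of the metal response element, TGCACNC or TGCGCNC, on either strand, and no matches overlapped.
MT2A (chr16:56608334-56608583, plus strand): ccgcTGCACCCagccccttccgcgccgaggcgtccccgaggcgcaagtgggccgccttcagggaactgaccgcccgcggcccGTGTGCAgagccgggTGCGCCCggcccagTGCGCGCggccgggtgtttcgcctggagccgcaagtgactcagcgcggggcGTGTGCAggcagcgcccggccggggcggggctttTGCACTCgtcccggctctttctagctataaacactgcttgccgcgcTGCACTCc
MT1X (chr16:56682220-56682469, plus strand): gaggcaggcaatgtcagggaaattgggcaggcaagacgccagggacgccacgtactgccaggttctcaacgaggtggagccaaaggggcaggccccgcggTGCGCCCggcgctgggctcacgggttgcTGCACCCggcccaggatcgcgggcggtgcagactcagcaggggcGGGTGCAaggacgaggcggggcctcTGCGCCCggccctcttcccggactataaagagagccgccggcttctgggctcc
MT1H (chr16:56669564-56669813, plus strand): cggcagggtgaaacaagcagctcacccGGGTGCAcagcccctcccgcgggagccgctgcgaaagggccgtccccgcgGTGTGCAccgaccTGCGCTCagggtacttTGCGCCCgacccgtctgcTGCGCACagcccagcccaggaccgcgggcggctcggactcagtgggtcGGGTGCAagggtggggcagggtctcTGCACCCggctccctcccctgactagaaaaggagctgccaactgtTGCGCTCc
SLC30A1 (chr1:211579162-211579411, minus strand): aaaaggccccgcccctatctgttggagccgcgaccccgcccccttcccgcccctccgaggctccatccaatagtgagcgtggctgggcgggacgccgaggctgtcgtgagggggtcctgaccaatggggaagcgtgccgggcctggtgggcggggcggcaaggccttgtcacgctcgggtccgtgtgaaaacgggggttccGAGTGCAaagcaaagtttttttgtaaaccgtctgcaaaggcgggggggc
MT2A held 7 matches, MT1X 4, MT1H 8 and SLC30A1 1. Of all promoters in the table, 24.8% held at least 1 match in these 250 bases, 0.370% at least 4, 0.0313% at least 7 and 0.0171% at least 8. The number of matches did not follow the level across these 4 genes, since MT1H had the most matches and no read in any library. A match of letters is not a binding site.

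Levels are given in CPM (reads of a gene per 1000000 reads of its library), with the number of reads behind them. The 16 libraries held 9841396 reads in all, and between 353871 and 974654 reads in the 8 Caco-2 libraries. HepG2 libraries were less even: the 6 outside the co-culture FFA group held 274857 to 1657420 reads, and the 2 of that group 147096 and 49634. In the shallowest library, HepG2 co-culture FFA replicate 2, 1 read was worth 20.1 CPM. A floor of 3 reads, used as a simple limit for a gene without a read, was worth 60.4 CPM there. The exact 95% counting interval for 0 reads reached 74.3 CPM. Every HepG2 result that includes this group rests on these 2 libraries. The limma tests below shared 1 estimate of a gene's spread over all groups fitted. The spread between these 2 libraries thus also entered tests that leave this group out. For 9 of 10 liver markers (not TTR) each HepG2 library exceeded each Caco-2 library, but for gut markers the reverse held for 2 of 10, CDH17 and PHGR1, and CDX1 and ISX had no read in any Caco-2 group. The summed gut markers of the Caco-2 libraries ran from 183 to 339 CPM, and those of the HepG2 libraries from 94.6 to 216 CPM. CDH17, CDX2 and GPA33 were seen in Caco-2 and had no read in any HepG2 group, while TFF3 and VIL1 were found in both lines. Of the 10 gut markers, 2 to 4 were at 0 in each Caco-2 group and 5 to 8 in each HepG2 group. In bulk RNA, fewer cells that express a gene and less RNA per cell cannot be told apart.

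MT2A and MT1X made up most metallothionein reads of the Caco-2 cells, while in HepG2 MT2A made up 54.0% of them, MT1E 17.1%, MT1X 14.2%, MT1G 7.48% and MT1F 7.22%. MT2A, the metallothionein expressed most widely in human tissues, had 886 reads in Caco-2 and 636 in HepG2. In Caco-2 its level was 169.7 and 159.8 CPM in the mono-culture controls, 145.9 and 125.4 with FFA, 178.3 and 237.4 in the co-culture controls and 177.5 and 251.3 in co-culture with FFA. In HepG2 the same groups had 125.3 and 153.5, 91.9 and 134.6, 126.7 and 122.6, and 149.6 and 20.2 CPM, the last value standing for 1 read. The 4 Caco-2 co-culture libraries were the highest of the 16, followed without overlap by the 2 Caco-2 mono-culture controls, and the ranges of the other 5 groups ran into one another.

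MT1X had 614 reads in Caco-2 and 167 in HepG2, and it was the member whose level set the lines apart most clearly. The Caco-2 values were 120.4 and 112.8 CPM (mono-culture control), 103.9 and 107.7 (mono-culture FFA), 120.8 and 203.5 (co-culture control) and 115.9 and 146.6 (co-culture FFA). The HepG2 values were 37.1 and 30.3, 18.8 and 18.2, 38.6 and 32.8, and 61.2 and 60.4 CPM in the same order. All 8 Caco-2 libraries lay above all 8 HepG2 libraries, the lowest Caco-2 value being 103.9 CPM and the highest HepG2 value 61.2. Of the 6 members tested between the lines, MT1X was the only one without overlap, where 10.3% of the 17544 genes tested had all 8 libraries of one line above all 8 of the other.

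MT1E, a metallothionein of the same cluster, had the reverse pattern, with 201 HepG2 reads and 24 Caco-2 reads. In HepG2 it had 32.5 and 46.9 CPM in the mono-culture controls, 28.3 and 18.2 with FFA, 46.5 and 32.8 in the co-culture controls, and 95.2 and 0 in co-culture with FFA. In Caco-2 it had 0 and 7.05, 2.48 and 3.22, 9.90 and 2.82, and 4.10 and 6.16 CPM, on 0 to 6 reads a library. Only the shallowest HepG2 library, at 0 reads, fell into the Caco-2 range.

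MT1G, a member that metal ions are known to induce strongly in liver cells, had 88 reads in HepG2 and 1 in Caco-2. The HepG2 libraries had 9.29 and 18.6 CPM (mono-culture control), 9.42 and 3.64 (mono-culture FFA), 18.1 and 25.4 (co-culture control) and 40.8 and 0 (co-culture FFA). In Caco-2 the 1 read was in co-culture FFA replicate 1, at 1.03 CPM, and the other 7 libraries had 0. Pooled over the libraries of a line, MT1G was 86.8-fold higher in HepG2, with an exact 95% counting interval from 15.2 to 3468. MT1E was 8.26-fold higher in HepG2 on the same scale (5.40 to 13.2), and MT1X was 3.73-fold higher in Caco-2 (3.14 to 4.45). These intervals cover counting error only, and reads from PCR are not independent molecules.

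MT1F was found in 8 Caco-2 libraries and 7 HepG2 libraries, on 125 and 85 reads. In Caco-2 it had 8.22 and 14.1 CPM (mono-culture control), 9.90 and 28.9 (mono-culture FFA), 25.8 and 11.3 (co-culture control) and 41.0 and 38.2 (co-culture FFA). The co-culture FFA libraries were the highest of all, and the other 3 Caco-2 groups overlapped. In HepG2 it ran from 0 to 22.5 CPM, with a median of 11.5. MT1H and MT1M had no read in any library, where the floor of 3 reads was worth 0.305 CPM over all 16 (3 of 9841396 reads).

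SLC30A1 was barely seen, with 11 reads in Caco-2 and 2 in HepG2. Caco-2 had 2.74 and 4.70 CPM in the mono-culture controls, 2.48 and 0 with FFA, 1.98 and 8.48 in the co-culture controls and 1.03 and 0 in co-culture with FFA, which stand for 0 to 4 reads a library. In HepG2, 1 mono-culture control (0.98 CPM) and 1 co-culture control (0.61 CPM) held 1 read each and the other 6 libraries none. Per kilobase of transcript, the median over the 8 Caco-2 libraries was 433 CPM for MT2A, 293 for MT1X, 46.9 for MT1F, 5.20 for MT1E and 0.378 for SLC30A1. In HepG2 the medians were 314 for MT2A, 86.5 for MT1X, 46.4 for MT1E, 33.9 for MT1G and 27.1 for MT1F. Nanopore reads follow cDNA strands rather than fragments, so their number need not rise with transcript length.

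**Figure D1:**
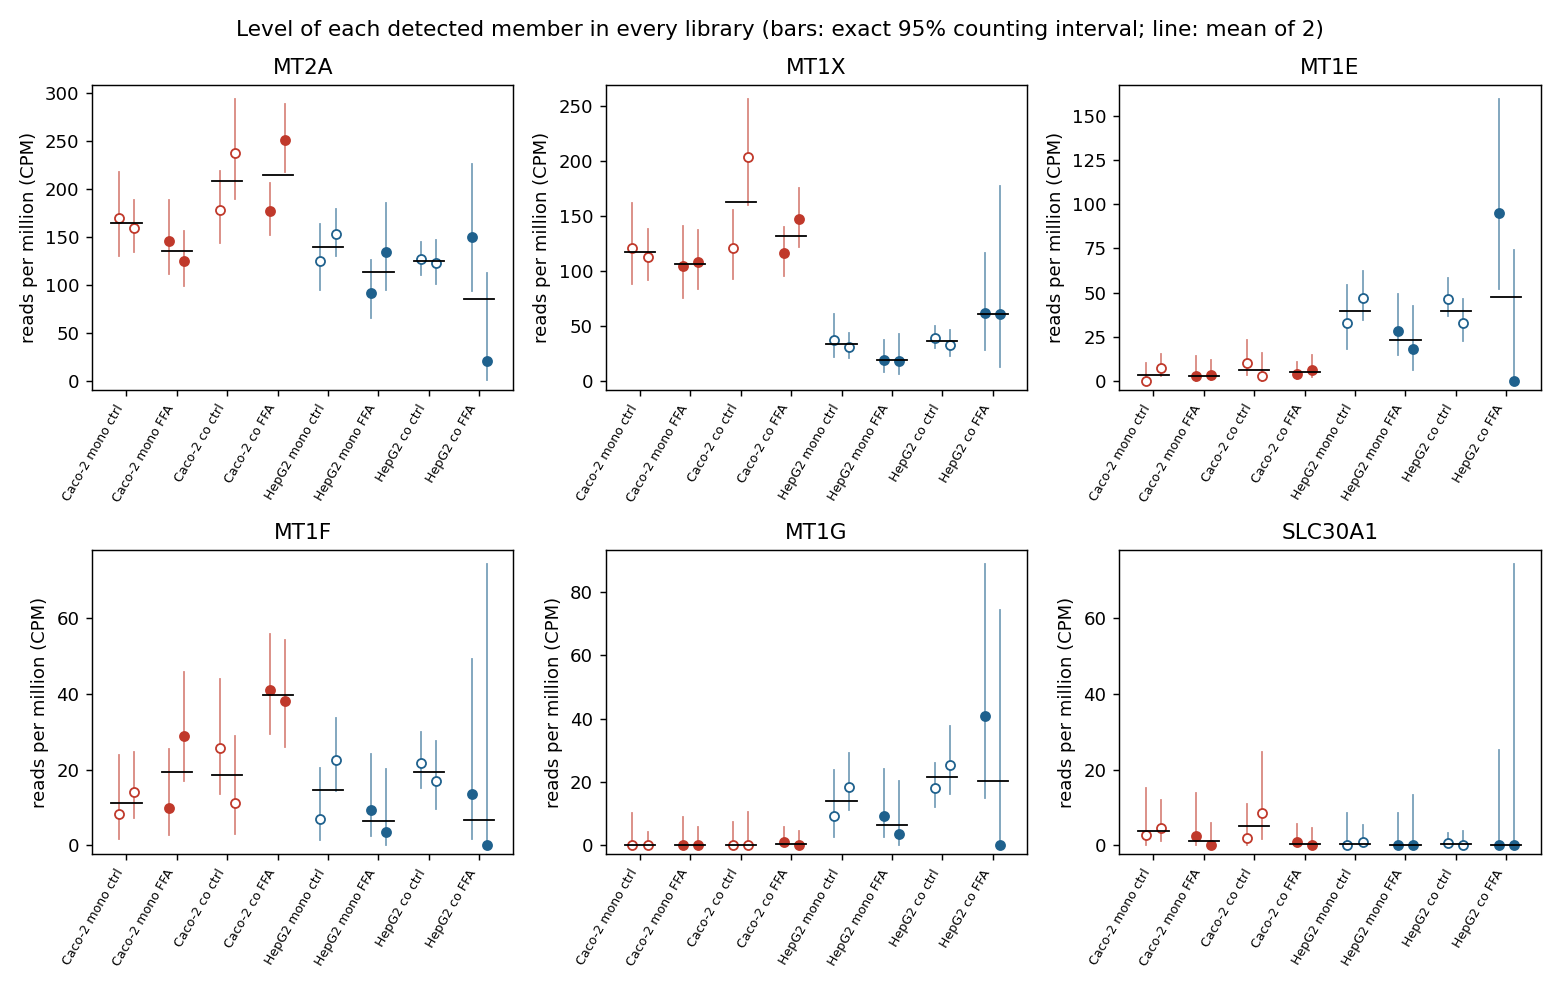
Level in every library of the 6 members that had any read, in CPM on a linear axis, for the 8 groups on the horizontal axis (Caco-2 red, HepG2 blue, FFA filled, control open). Vertical bars are exact 95% counting intervals and short lines the mean of 2 libraries. MT1X separates the lines in all libraries, from 103.9 CPM upward in Caco-2 and up to 61.2 CPM in HepG2, and the widest bars belong to HepG2 co-culture FFA replicate 2, with 49634 reads.

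In Caco-2 the 7 metallothionein members summed to between 262.1 and 455.0 CPM, on 106 to 359 reads. Their sum in the 7 deeper HepG2 libraries was between 157.8 and 360.3 CPM, on 49 to 417 reads. The shallowest HepG2 library had 4 metallothionein reads, 3 of MT1X and 1 of MT2A. The make-up of these reads does not depend on how libraries are scaled. MT1X made up 33.1% to 44.7% of the metallothionein reads in the 8 Caco-2 libraries and 10.2% to 17.6% in the 7 deeper HepG2 libraries. MT1E made up 0% to 2.96% against 10.2% to 26.4%, and MT1G 0% to 0.302% against 2.04% to 11.3%. The shares of MT1X, MT1E and MT1G thus did not overlap between the lines once the library with 4 reads was left out. In that library they were 75.0%, 0% and 0%. Shares of a library are parts of the same whole, so these are not separate results. The share of MT2A was 47.3% to 56.9% in the Caco-2 and 41.5% to 75.5% in these HepG2 libraries, and that of MT1F 2.48% to 12.1% and 2.04% to 8.63%, so these shares overlapped.

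**Figure D2:**
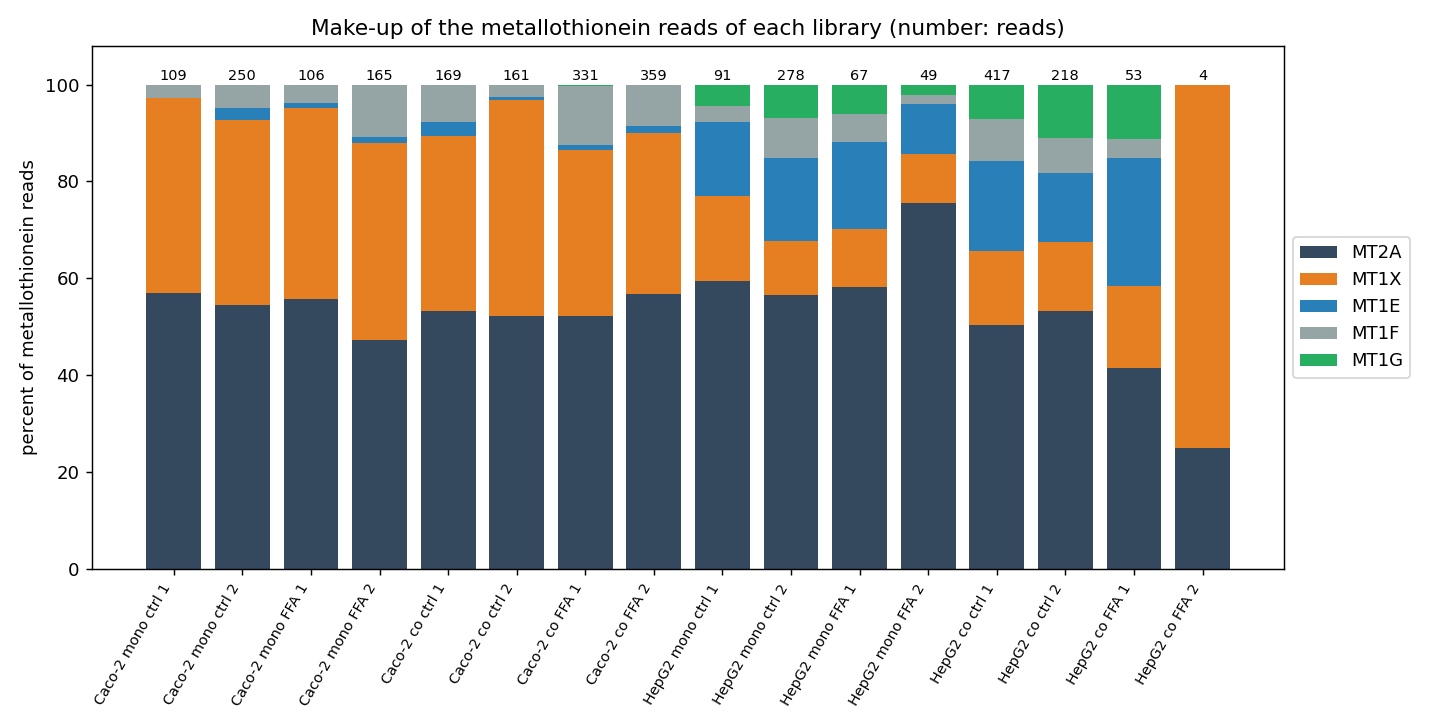
Percent of the metallothionein reads of each library that belonged to each member, with the number of such reads above each bar. MT2A and MT1X fill most of each Caco-2 bar, MT1E and MT1G appear in the 7 deeper HepG2 bars, and the last bar stands on 4 reads.

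The lines were compared by limma on log2(CPM + 1) over 17544 genes, with Benjamini-Hochberg adjustment over all of them. On this scale changes of low genes are understated. Averaged over the 4 conditions, 4 of the 6 members tested passed an adjusted p of 0.05, against 30.3% of all genes tested. A gene was tested if its mean reached 1 CPM in any group. MT1G met this only in HepG2 (at most 0.515 CPM in a Caco-2 group), and SLC30A1 only in Caco-2 (at most 0.490 CPM in a HepG2 group). Their calls are therefore not separate support for a difference between the lines. MT1G was 3.32 higher in HepG2 (SE 0.64, adjusted p = 0.00111) and MT1E 2.45 higher (SE 0.75, adjusted p = 0.0243). MT1X was lower in HepG2 (log2 difference -1.85, SE 0.14, adjusted p = 2.2e-07), as was SLC30A1 (-1.30, SE 0.39, adjusted p = 0.0209). MT2A (-0.79, SE 0.30, adjusted p = 0.061) and MT1F (-1.11, SE 0.50, adjusted p = 0.117) did not pass. The median of all genes in this comparison was -0.16, and that of the 6 members -0.95. At an unadjusted p of 0.05, all 6 members passed, against 40.4% of genes.

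The MT1E call was less firm than the others. It was lost with a pseudocount of 0.1 (adjusted p = 0.145) and on leaving out any of 13 of the 16 libraries (log2 difference 2.07 to 2.63, adjusted p up to 0.115), and its adjusted p was 0.000127 without the shallowest library. SLC30A1, on 13 reads in all, lost its call without HepG2 mono-culture control replicate 1 or co-culture control replicate 2 (adjusted p = 0.0553 and 0.056), and its pooled difference was 5.57-fold with a counting interval from 1.22 to 51.7. The fitted values of MT1G and SLC30A1 depend on the pseudocount, because most libraries of one line had no read.

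In the mono-culture controls alone, 1 of the 6 members was called, against 10.6% of genes (22.0% at an unadjusted p of 0.05, where 4 members passed). This was MT1X (-1.77, SE 0.29, adjusted p = 0.000998). The SEs of this comparison drew on the spread within all 8 groups, not on the controls alone. MT1G had 3.83 (SE 1.27, adjusted p = 0.0771), MT1E 3.82 (SE 1.51, adjusted p = 0.141), SLC30A1 -1.71 (SE 0.78, adjusted p = 0.214), MT2A -0.25 (SE 0.60, adjusted p = 0.93) and MT1F 0.21 (SE 1.01, adjusted p = 1.00). edgeR's quasi-likelihood test on the recovered reads tested 5 members and called MT1G, MT1E and MT1X in the mono-culture controls, against 49.0% of 5101 genes, and all 5 averaged over conditions, against 66.9%. MT1X was called in both comparisons under all 24 alternatives tried. Line and chip chamber cannot be told apart in this design.

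**Figure D3:**
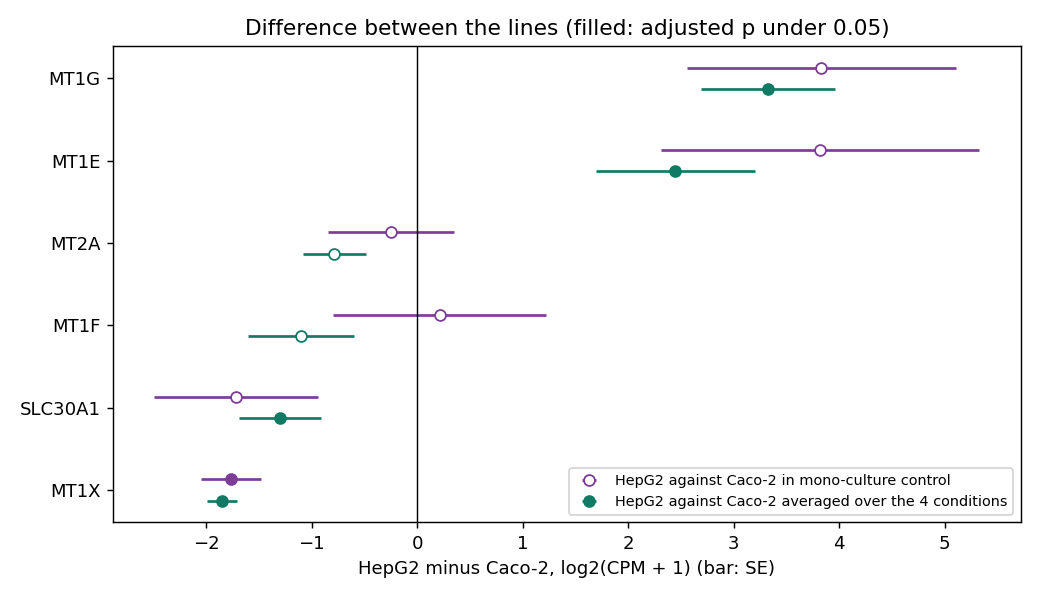
HepG2 minus Caco-2 difference of the 6 tested members in log2(CPM + 1), with SE bars, in the mono-culture controls (purple) and averaged over the 4 conditions (green), filled where the adjusted p was under 0.05. MT1G and MT1E lie at 3.32 and 2.45 in the averaged comparison and MT1X at -1.85.

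FFA and co-culture were then compared within each line over 15454 genes in Caco-2 and 14430 in HepG2. In neither line did a member pass an adjusted p of 0.05 in any of 8 limma tests (FFA in each culture, co-culture with and without FFA, both averages, their interaction, and any difference among the 4 groups). In Caco-2, 5 members were tested (MT1E, MT1F, MT1X, MT2A and SLC30A1) and in HepG2 5 (MT1E, MT1F, MT1G, MT1X and MT2A). Few other genes passed: in Caco-2, 0.00647% for FFA in mono-culture, 0% for FFA in co-culture, 0.0971% for co-culture without FFA and 0.0971% with it, 0% for FFA averaged over culture, 0.453% for co-culture averaged over treatment, 0% for the interaction and 0.155% for any difference. In HepG2 the share was 0.0762% for FFA averaged over culture and 0% in the other 7 tests. edgeR called 0 of 3 members in Caco-2 and 0 of 4 in HepG2 in every test, where it called 0.0435% to 8.49% of 4595 genes and 0% to 13.3% of 4030 genes.

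In Caco-2, MT1E (3 to 9 reads a group), MT1X and SLC30A1 (1 to 5 reads a group) had their highest mean in co-culture without FFA. MT1F and MT2A had it in co-culture with FFA. No difference passed the threshold. The share of all genes with their highest mean in either co-culture group was not counted, so no trend is read from this order. MT2A had 165 ± 6.98 and 136 ± 14.5 CPM in mono-culture (control and FFA, mean ± SD, n = 2) and 208 ± 41.8 and 214 ± 52.2 in co-culture. All 4 co-culture libraries lay above all 4 mono-culture libraries, as they did for 4.25% of the genes tested and for no other tested member. The log2 difference averaged over treatment was 0.48 (SE 0.15, adjusted p = 0.197 by limma), beside a median of 0.14 over all genes. With FFA it was 0.64 (SE 0.21, adjusted p = 0.474). MT1X followed MT2A across the 8 Caco-2 libraries (Pearson r = 0.834 of log2 values, from libraries that share depth and scaling), and its largest co-culture difference was 0.43 without FFA (SE 0.24, adjusted p = 0.604).

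The summed markers differed with the culture as well. The summed liver markers in Caco-2 were 5275 to 6193 CPM in mono-culture and 6787 to 6994 in co-culture, with 3 of the 10 markers higher in all 4 co-culture libraries, none lower in all 4 and none at 0 in any group. The summed gut markers were 183 to 233 and 275 to 339 CPM, with 2 of the 10 higher in all 4. Over all genes tested, 4.25% were higher in all 4 co-culture libraries. The valves between the chambers were closed before harvest. MT1G, which HepG2 cells carried, had 0 reads in 3 of the 4 Caco-2 co-culture libraries and 1 read in the other. MT1E had 1 to 5 reads in each of them and 0 to 6 in the mono-culture libraries. In the Caco-2 co-culture libraries 1 read was worth 1.03 to 2.83 CPM, so these counts are too low to show whether HepG2 RNA was present. That was not tested, nor was the part of the markers in the MT2A difference.

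MT1F in Caco-2 had 11.2 ± 4.16 and 19.4 ± 13.5 CPM in mono-culture and 18.5 ± 10.2 and 39.6 ± 2.01 in co-culture (control and FFA, n = 2). Its FFA difference was 1.16 in co-culture (SE 0.54, adjusted p = 0.862 by limma) and 0.89 averaged over culture (SE 0.38, adjusted p = 0.829). SLC30A1 was lower with FFA in Caco-2, 2 reads against 9, with an average difference of -1.60 (SE 0.71, adjusted p = 0.829). MT2A gave the smallest p for FFA in mono-culture (-0.28, SE 0.21, adjusted p = 0.839) and for the interaction (0.32, SE 0.29, adjusted p = 0.82). At an unadjusted p of 0.05 the members that passed were MT1F for FFA in co-culture (background 4.88%), MT1F and MT2A for co-culture with FFA (7.78%) and for any difference (8.17%), MT1F and SLC30A1 for FFA averaged (4.85%), and MT1F, MT1X and MT2A for co-culture averaged (11.8%). None passed for FFA in mono-culture (5.80%), co-culture without FFA (10.3%) or the interaction (5.02%).

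In HepG2, FFA in mono-culture went with lower values of all 5 tested metallothionein members, none past the threshold. The summed level was 241 ± 42.8 CPM in the controls and 168 ± 14.5 with FFA (n = 2). MT1X lay below the control range in both libraries, at 18.8 and 18.2 against 37.1 and 30.3 CPM, on 13 and 47 reads (log2 difference -0.82, SE 0.35, adjusted p = 0.796 by limma). The share of all genes with 2 libraries clear of 2 others was not counted. MT2A differed by -0.32 (SE 0.74, adjusted p = 0.999). The SEs of MT1X and MT2A also drew on the spread of the co-culture libraries.

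In co-culture MT1X had the opposite order, 61.2 and 60.4 CPM with FFA against 38.6 and 32.8 without (log2 difference 0.76, SE 0.35, adjusted p = 0.337). The 2 FFA values stand for 9 and 3 reads, with exact 95% counting intervals of 28.0 to 116 and 12.5 to 177 CPM, which hold the control values. The difference between the 2 FFA effects was 1.58 (SE 0.50, adjusted p = 0.676). MT1X with FFA was 1.66 higher in co-culture than in mono-culture (SE 0.35, adjusted p = 0.175), and 0.87 higher averaged over treatment (SE 0.25, adjusted p = 0.558). MT1F had the smallest p for co-culture without FFA (0.56, SE 1.25, adjusted p = 1.00) and for FFA averaged over culture (-1.69, SE 0.88, adjusted p = 0.433). At an unadjusted p of 0.05, MT1X alone passed for FFA in mono-culture (6.26% of genes), co-culture with FFA (14.7%), co-culture averaged (7.72%), the interaction (6.94%) and any difference (12.2%). No member passed for FFA in co-culture (15.9%), co-culture without FFA (2.61%) or FFA averaged (13.8%).

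The 2 libraries of the HepG2 co-culture FFA group lay far apart. Replicate 1 had MT2A at 149.6, MT1E at 95.2 and MT1G at 40.8 CPM, above or near the highest HepG2 values, and replicate 2 had 1, 0 and 0 reads. Leaving out replicate 1, so that the library with 4 metallothionein reads stood alone for its group, gave 4 called members for FFA in co-culture (MT1E, MT1F, MT1G and MT2A lower), for FFA averaged over culture (the same members) and for co-culture with FFA (MT1E, MT1G and MT2A lower, MT1X higher). Leaving out replicate 2 gave 0 in each HepG2 test. Without Caco-2 co-culture FFA replicate 2, MT1G was called in 6 Caco-2 tests on its 1 read.

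**Figure D4:**
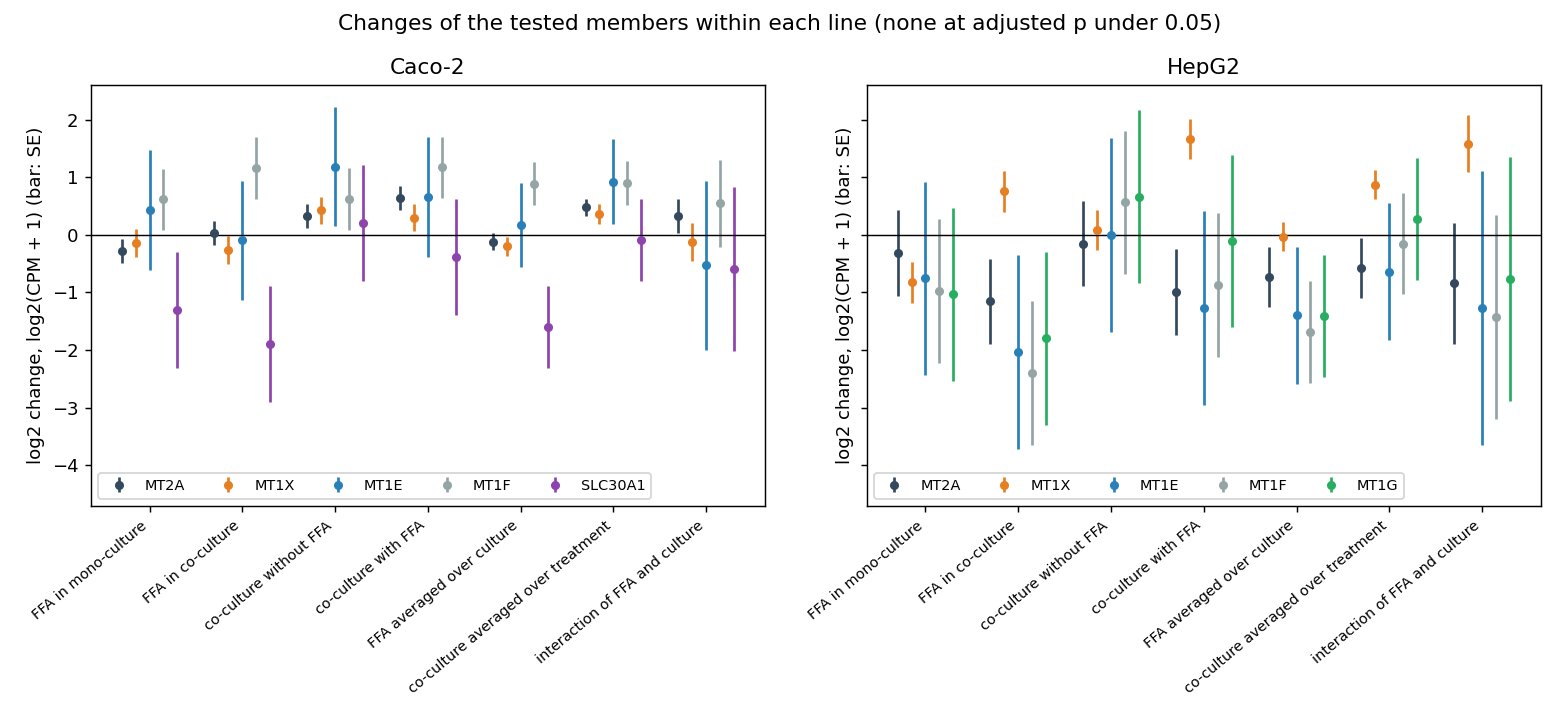
Change of each tested member in 7 comparisons within Caco-2 (left) and HepG2 (right), in log2(CPM + 1) with SE bars. MT2A lies above 0 in the Caco-2 co-culture comparisons (0.48 averaged), MT1X lies above 0 in HepG2 co-culture with FFA (1.66), and no adjusted p was under 0.05.

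The long non-coding RNA AC026461.1 (ENSG00000259827, chromosome 16, 56682470-56687807, plus strand) starts at the same base as MT1X (56682470-56684196). It had 758 reads against 781 of MT1X over the 16 libraries (97.1%), with equal numbers in 5 libraries and 80% to 100% of the MT1X number in each. Whether the same reads were counted for both genes was not tested. No other member overlapped an annotated gene.

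**Figure D5:**
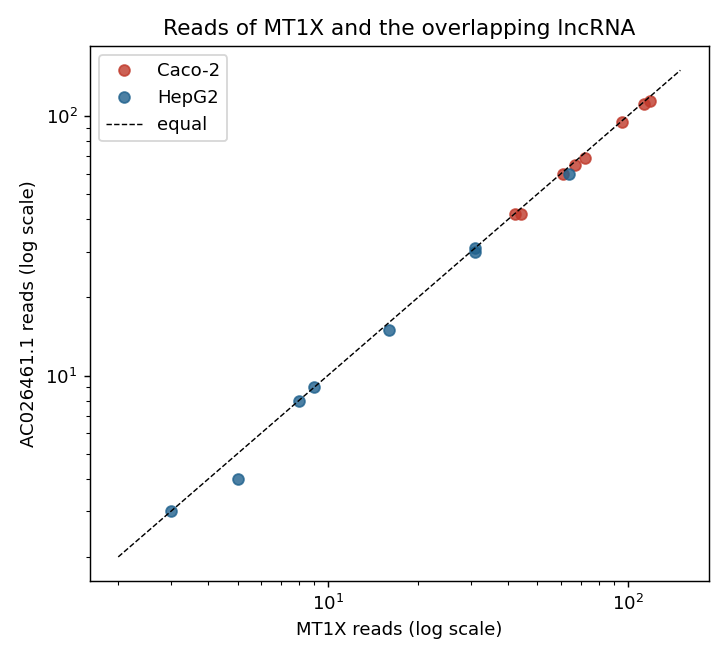
Reads of AC026461.1 against reads of MT1X in the 16 libraries, both axes on a log scale, with the line of equality dashed. The points follow the line from 3 to 119 MT1X reads, in Caco-2 and HepG2.

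Genes whose level followed the summed metallothionein level were ranked by Pearson r of log2(CPM + 1) over the 8 libraries of a line, taking genes that averaged 50 CPM or more, as a description of libraries that share depth and scaling. In Caco-2 the first 5 of 1921 were PRSS3, a trypsinogen (r = 0.954), ABHD14A-ACY1 (0.910), ACBD5 (0.904), AC026461.1 (0.892) and ACY1, an aminoacylase (0.871). ABHD14A-ACY1 is the read-through of ACY1, and AC026461.1 overlaps MT1X. In HepG2 the first 5 of 2028 were RBM25 (0.956), DDT and AC253536.7 (0.949 and 0.947), LEPROTL1 (0.943) and PMPCB (0.936). These had 1 to 6 reads in the shallowest library, and r was 0.803 to 0.880 over the other 7. Among the members in HepG2, MT1E and MT1X had r = -0.222 over 8 libraries and 0.888 without that library, while MT1E and MT1G had 0.944 and 0.886.

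Other genes of metal handling were taken from lists. Of 14 further metallothionein genes and pseudogenes, 3 had a read, 23 reads in all, and none was called. MT1A had the smallest p for any difference in both lines (adjusted p = 0.766 in Caco-2 and 0.663 in HepG2). Of 9 other zinc exporters of the SLC30 family, none was called within a line, SLC30A5 being nearest in Caco-2 (adjusted p = 0.408, group means 1.18 to 13.4 CPM) and SLC30A7 in HepG2 (adjusted p = 0.412, 0 to 7.71 CPM). Of 14 zinc importers of the SLC39 family, none was called within a line, SLC39A5 being nearest in Caco-2 (adjusted p = 0.673) and SLC39A14 in HepG2 (adjusted p = 0.258). SLC39A14, which carries zinc and iron into liver cells, had group means of 39.1, 14.9, 24.2 and 101 CPM in HepG2 (mono-culture control and FFA, co-culture control and FFA), the last on 18 reads. MTF1 in Caco-2 (adjusted p = 0.702) and the unrelated MTF2 in HepG2 (adjusted p = 0.598) did not pass, nor did ATOX1, a copper chaperone, in Caco-2 (adjusted p = 0.57) and SOD1, the copper-zinc superoxide dismutase, in HepG2 (adjusted p = 0.356). FKBP5 in Caco-2 (adjusted p = 0.611) and DUSP1 in HepG2 (adjusted p = 0.646) did not pass among the glucocorticoid-induced genes, and GCLC, of glutathione synthesis, did not among the stress genes in HepG2 (adjusted p = 0.287).

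The exception within a line was in the list of metal and oxidant stress genes in Caco-2. Of 12 tested, 2 fell in co-culture with FFA and 0 rose, and both are heat shock chaperones rather than oxidant defence genes. DNAJB1 had 565 ± 12.2 CPM in mono-culture with FFA and 89.4 ± 67.0 in co-culture with FFA (n = 2; log2 difference -2.88, SE 0.36, limma adjusted p = 0.00393), and HSPA1A 263 ± 19.7 and 80.6 ± 51.6 (-1.85, SE 0.32, adjusted p = 0.0434). The list's median was -1.04, beside 0.08 over all genes. DNAJB1 also fell in co-culture averaged over treatment (-1.64, SE 0.26, adjusted p = 0.013). DNAJB1 with FFA was called in 8 of 16 alternatives (adjusted p up to 0.335) and HSPA1A in 6 (up to 0.441), and both calls were lost on leaving out any of the 6 Caco-2 libraries outside co-culture with FFA. In the same comparison the tested metallothioneins had differences of 0.30 (MT1X) to 1.17 (MT1F).

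Between the lines, averaged over conditions, 2 of 6 tested zinc exporters were higher in HepG2 and 0 lower. They were SLC30A6 (1.39, SE 0.50, limma adjusted p = 0.0486) and SLC30A9 (0.92, SE 0.29, adjusted p = 0.0275). SLC30A6 had few reads. Its HepG2 mean was higher in the mono-culture controls (6.23 CPM on 10 reads against 0) and in co-culture with FFA (13.5 CPM on 2 reads against 2.05). It was slightly lower in mono-culture with FFA and in the co-culture controls (1.66 against 1.98 CPM in the latter). The SLC30A9 mean was higher in HepG2 in each condition, but its highest, 40.4 CPM in co-culture with FFA, stood on 6 reads. Of 12 zinc importers 2 were higher and 0 lower. SLC39A4, the main zinc importer of the gut, had 30.6 ± 5.96 CPM in the HepG2 and 4.50 ± 1.38 in the Caco-2 mono-culture controls (n = 2), and was 2.79 higher averaged over conditions (SE 0.29, adjusted p = 4.9e-06). SLC39A14 was 1.85 higher (SE 0.39, adjusted p = 0.00234). SLC30A1, the called zinc transporter that was lower in HepG2, had 11 reads in Caco-2 and 2 in HepG2, and its call was not firm, as given above. Of 9 copper genes 3 were higher in HepG2 (SLC31A1, SOD1 and COMMD1, 0.48 to 0.97) and 2 lower (COX17, -1.31, and ATOX1, -0.80). Of 12 stress genes 2 were higher (GCLC, 1.33, and NQO1, 1.69) and 5 lower, HSPA1A most (-3.98, SE 0.23, adjusted p = 1.1e-08), with HSPA1B, DNAJB1, HSPH1 and BAG3. Of 4 glucocorticoid-induced genes 3 were lower (PER1, -2.12, SGK1, -1.48, and DUSP1, -1.46) and 0 higher, all on few reads. PER1 and SGK1 had at most 2 reads in a HepG2 group and at most 6 in a Caco-2 group. DUSP1 had 1.82 to 2.32 CPM in 3 HepG2 groups and 13.5 CPM, on 2 reads, in co-culture with FFA. Its highest Caco-2 group mean was 11.3 CPM. The background for all of these counts was the 30.3% of genes given above.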

How the data were processed

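Deposited gene tables of 16 Nanopore cDNA libraries (8 groups, 2 replicates each) were used, grouped by the labels. Per the labels, minimap2 2.22 and GRCh38 are named for the processing; the study's methods also describe aligners and a quantifier without saying for which reads. The authors named the values TPM, but they are CPM values: they were whole multiples of a step worth 1 read (99.49% or more of values in a library within 0.1 of a whole read) and were not divided by length. Reads recovered from that step gave depths of 49634 to 1657420. How reads that fit several genes were handled is not given in the sources used here. For the FFA conditions the study selected genes by an analysis of variance with a minimum fold change; limma's F-test over the same 4 groups of a line stands closest to it here, without that minimum.

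Genes averaging 1 CPM or more in any group were tested in limma 3.58.1 (R 4.3.3) on log2(CPM + 1), with a trended prior, 4 group means per line (8 for the line comparisons), and Benjamini-Hochberg adjustment over all genes tested, threshold 0.05. The steps were tested on simulated data, in which fewer of the changed genes were recovered in HepG2 than in Caco-2. Alternatives were no filter, a minimum mean of 10 CPM, a pseudocount of 0.1, quantile and median-ratio scaling, a constant prior, a replicate block, edgeR 4.0.16 on recovered reads and leaving out each library. The labels do not say whether replicates were separate cultures, while the study's methods speak of independent experiments, at least 2, for its RNA sequencing; p-values measure the spread between these libraries. Counting intervals are exact (Clopper-Pearson) at 95%.

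The members and lists were chosen with earlier results of these data known. All members are named; for each comparison the member with the smallest p is given; a list gene is named where its adjusted p was under 0.05, or, where none of a list passed in a line, the gene with the smallest F-test p; gut and liver marker exceptions and genes of like pattern follow their stated rules. Promoters are RefSeq (GRCh38.p14, 4 of 8 members matched); gene positions and coding sequences are GENCODE 44, APPRIS principal transcripts, and identities come from global alignment in Biopython 1.88.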

Additional observations from a re-analysis of the deposited data

Results flagged for a closer look

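MT1X in HepG2 had values on opposite sides of the controls with FFA in the 2 cultures, with no test passed. Both FFA libraries lay below both controls in mono-culture (18.8 and 18.2 against 37.1 and 30.3 CPM) and above both in co-culture (61.2 and 60.4 against 38.6 and 32.8 CPM). The share of all genes with 2 libraries clear of 2 others was not counted, so the separation itself is not read as a result. The FFA change in co-culture minus that in mono-culture was 1.58 in log2 (SE 0.50, limma adjusted p = 0.676, and 0.0568 to 0.744 over 16 alternatives). The co-culture FFA values rested on 9 and 3 reads in the 2 shallowest libraries, of 147096 and 49634 reads.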

How the results depend on the processing

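Within the lines, the number of members called was 0 in all 16 tests under each other scaling, filter, pseudocount, prior and count test. Leaving out 1 library gave 0 to 1 members in Caco-2 (0 in FFA in mono-culture and co-culture without FFA) and, in HepG2, 0 to 4 for FFA in co-culture, FFA averaged and co-culture with FFA, 0 to 3 for co-culture averaged and any difference, 0 to 2 for the interaction and 0 in the other 2. The Caco-2 call was MT1G on 1 read, without co-culture FFA replicate 2. The HepG2 calls came without co-culture FFA replicate 1, apart from MT1X for any difference without co-culture control replicate 1, and each leaves a lone library assumed to vary like the other groups.

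Between the lines in the mono-culture controls, 1 member was called, 2 with a mean of at least 10 CPM or quantile scaling, 3 with edgeR, and 1 to 3 on leaving out a library (3 without either HepG2 co-culture FFA library). Averaged over conditions, 4 were called and 2 to 6 on leaving out a library (2 without HepG2 mono-culture control replicate 1 or co-culture control replicate 2). Of the single-gene changes, 1 turned direction, MT1F in HepG2 co-culture without FFA, from 0.56 to -0.22 without mono-culture control replicate 1 (-0.22 to 1.34 over the libraries left out). The cause was not tested. Replicate numbers were not taken to pair the libraries: the mean correlation of same-numbered deviations was 0.012 in Caco-2 and 0.00332 in HepG2, and over genes of at least 100 CPM 0.151 (-0.0172 to 0.291 over 6 pairs of groups) and 0.0529 (-0.103 to 0.121), not over 0.1 in every pair. The fit with a replicate block called 0 members in each test within the lines, and 1 and 4 between them. Depth limits HepG2 co-culture with FFA most: in replicate 2 a gene without a read could have had up to 60.4 CPM.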
